A study of Mus musculus with 31 samples.

Results

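The step described here is the one at which a double positive (DP) thymocyte, which carries both coreceptors CD4 and CD8 on its surface, becomes a CD8 single positive (SP8) thymocyte, which carries CD8 alone. It was followed across all genes in the adult mouse thymus, from the 4 adult DP and the 4 adult SP8 RNA sequencing libraries, 8 of the 31 libraries of the series. They were taken by their labels, as raw count columns, and no measured value was used to choose them. The mice were of the inbred strain C57BL/6 and 12 weeks old, and both groups were untreated. Thymocytes bound by CD4 beads were sorted by flow cytometry as DP, and those left over were bound by CD8a beads and sorted as SP8, per the labels. For sorting, the submitters listed antibodies against CD4, CD8, CD25 and CD44, and none against the T cell receptor. The remaining libraries came from earlier double negative (DN) thymocytes and from naive CD8 T cells of the spleen (CD8) at the same age, and from the same stages in neonates of 5 to 7 days. The submitters called the samples biological replicates, and whether a replicate number stands for 1 mouse or for a pool is not given in the sources used here.

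The thymus makes T cells by trial. A DP thymocyte rearranges its T cell receptor alpha genes with the RAG recombinase until the receptor binds a self peptide on a major histocompatibility (MHC) molecule, and it dies if none fits. A cell whose receptor binds MHC class I weakly is kept (positive selection), turns off Cd4 under the transcription factor RUNX3, moves from cortex to medulla along ligands of the chemokine receptor CCR7, and leaves for the blood through the sphingosine-1-phosphate receptor S1PR1, whose gene is switched on by KLF2. The alternative CD4 lineage is set by ThPOK, the product of Zbtb7b.

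Library totals ran from 14653875 to 20324520 counts, at which 1 count equals at most 0.0657 CPM (counts scaled to a common library size). Values below are in CPM after TMM scaling, as mean ± SD over the 4 libraries of a group unless every library is given, and libraries are listed in the order of replicates 1 to 4. The fold changes and adjusted p-values come from edgeR's quasi-likelihood test with Benjamini-Hochberg adjustment over 16461 genes, and a gene is called at an adjusted p below 0.05. The spread behind these p-values was estimated over all 31 libraries of the series, not over the 8 adult DP and SP8 libraries alone. Within a group, log2 CPM of 2 libraries correlated across genes at 0.979 to 0.989, and no pair agreed within sampling noise. SP8 replicate 2 stood apart in the expression of dividing-cell genes and of DP genes, and DP replicate 2 in several genes too; replicate 1 of both groups had little expression of Y-linked Ddx3y (13.6 CPM in DP and 16.4 CPM in SP8, against 110.2 to 216.3 CPM in the other 6 libraries). Counts came from bulk RNA, in which fewer cells of a type and less RNA per cell cannot be told apart.

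Marker levels went with the labels. Cd4 had 1673, 1666, 1657 and 1718 CPM in the DP libraries and 6.68, 4.86, 6.700 and 7.76 CPM in the SP8 libraries. Cd8a, which both groups express, had 3239 ± 205 CPM in DP and 1727 ± 125 CPM in SP8, and Cd8b1 had 2265 ± 203 CPM in DP and 944 ± 149.5 CPM in SP8. Runx3 had 13.9, 17.5, 14.97 and 12.5 CPM in the DP libraries and 144, 150.1, 169 and 145 CPM in the SP8 libraries, and the groups did not overlap. Ccr7 had 9.82, 12.2, 9.52 and 8.99 CPM in the DP libraries and 362, 413, 292 and 371 CPM in the SP8 libraries, again without overlap. Zbtb7b, which marks the CD4 lineage, had 2.995 ± 1.39 CPM in DP and 0.362 ± 0.183 CPM in SP8. Among the surface proteins used for sorting, Cd44 had 6.63 ± 1.499 CPM in DP and 18.4 ± 2.52 CPM in SP8 and Il2ra, which encodes CD25, had 7.18 ± 2.85 CPM in DP and 1.92 ± 0.385 CPM in SP8. The sort chose cells by these proteins, so the values of these genes check the labels and are not findings.

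**Figure D1:**
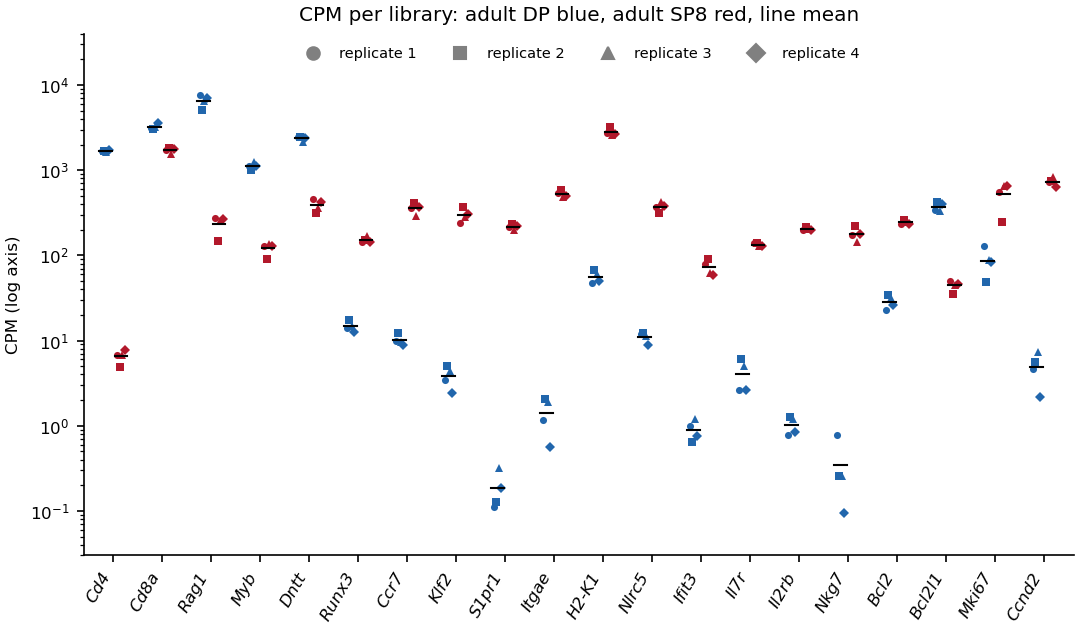
CPM of 20 genes in each adult DP library (blue) and each adult SP8 library (red) on a log axis, with the marker shape giving the replicate number and the line the mean of 4 libraries. All 20 genes, picked from those in the text, separate the groups without overlap, as did 51% of all tested genes. SP8 replicate 2 (square) lies lowest among SP8 for Rag1, Myb and Mki67.

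Of the 16461 tested genes, 9994 (60.7%) were called between adult DP and adult SP8, 5460 (33.2%) higher and 4534 (27.5%) lower in SP8. With a fold change of 2 or more required as well, 4894 genes (29.7%) remained, 2951 higher and 1943 lower. In 8400 genes (51%) the 4 DP libraries did not overlap the 4 SP8 libraries, among them 8194 of the called genes. The median log2 fold change over all tested genes was 0.037. A call was thus the common outcome, and the counts in the gene lists below are to be read against these percentages. The lists were chosen with earlier results of these data known, so their counts describe the members and are not independent support.

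**Figure D2:**
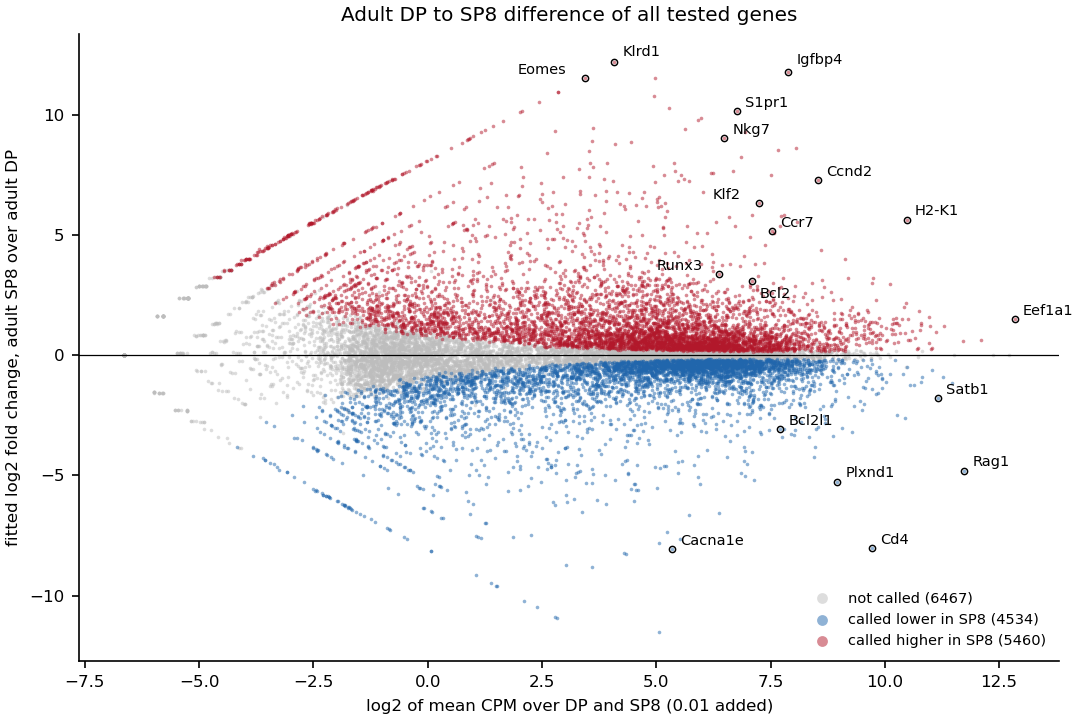
Fitted log2 fold change of adult SP8 over adult DP (y axis) against the log2 of the mean CPM of both groups (x axis) for each of the 16461 tested genes, coloured by call. Genes at 0 counts in one group form the straight diagonal lines at the left, and their fitted values depend on the prior count; the circled genes are described in the text.

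Among called genes whose libraries did not overlap and whose higher group averaged 20 CPM or more, the largest rises were Klrd1, Igfbp4, Eomes, Art2b, H2-Q6, S1pr1, Adam19, Rflnb, Neurl3, Adgrg5, Nkg7 and Phf11b. Klrd1, which encodes the CD94 subunit of NK-type receptors, had 0 counts in all 4 DP libraries and 33.8 ± 4.57 CPM in SP8, at least 793-fold higher against a floor of 3 counts over the DP group. Eomes, a T-box transcription factor of memory and cytotoxic cells, also had 0 counts in DP and 21.6 ± 3.07 CPM in SP8, at least 507-fold higher. Art2b, an ADP-ribosyltransferase of the T cell surface, had 2 counts over the DP group and was 2220.2-fold (95% counting interval 615 to 18333) higher in SP8. Phf11b had 3 counts in DP and was 564-fold (95% counting interval 193 to 2733) higher. Igfbp4, a binding protein of insulin-like growth factors, went from 0.128 ± 0.09204 to 472 ± 98.6 CPM (log2 fold change 11.78, SE 0.24, adjusted p = 5.82e-29). Adam19 (a membrane metalloprotease) went from 0.124 ± 0.117 to 125 ± 12.1 CPM, Rflnb (which encodes a filamin-binding protein) from 0.139 ± 0.207 to 119.8 ± 19.6 CPM, Neurl3 (a ubiquitin ligase) from 0.157 ± 0.1695 to 99.5 ± 10.5 CPM and Adgrg5 (an adhesion receptor) from 0.3998 ± 0.326 to 245 ± 22.3 CPM.

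The largest falls under the same rule were BB031773, Cacna1e, Cd4, Adam12, Scn4b, Smoc1, Slc7a11, Tctex1d1, Il17re, Papss2, Nron and Xrra1. Slc7a11, the cystine importer that feeds glutathione synthesis, had 208, 161, 143 and 141 CPM in the DP libraries and 2.66, 0.9202, 1.47 and 1.96 CPM in the SP8 libraries (log2 fold change −6.55, SE 0.18, adjusted p = 1.18e-26). Every DP library was far above every SP8 library. A pair of ion channel genes lay among them. Cacna1e, a voltage-gated calcium channel subunit, went from 80.5 ± 17.4 to 0.293 ± 0.172 CPM, and Scn4b, a sodium channel subunit that is known to be expressed in DP cells, from 74.6 ± 6.87 to 0.444 ± 0.03595 CPM. The metalloprotease gene Adam12 went from 91.2 ± 16.5 to 0.441 ± 0.06302 CPM, the secreted calcium-binding protein gene Smoc1 from 105 ± 16.5 to 1.03 ± 0.486 CPM and the sulfate-activating enzyme gene Papss2 from 47.4 ± 4.33 to 0.938 ± 0.358 CPM. BB031773 and Nron are annotated as antisense RNAs, and since the use of strand in counting is not given in the sources used here, their counts cannot be told apart from those of overlapping genes.

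In CPM, a scale not corrected for transcript length, the largest gains were in Eef1a1, H2-K1, Rplp0, Hsp90ab1, Rpsa and Eef2. Of these, Eef1a1 and Eef2 encode translation elongation factors, and Rplp0 and Rpsa encode ribosomal proteins. Eef1a1 went from 3839.9 ± 375 to 10795 ± 1205 CPM and Rpsa from 761 ± 82.6 to 2679.5 ± 462 CPM; these families have many near-identical pseudogenes, so their counts are uncertain. The chaperone gene Hsp90ab1 went from 1008 ± 167 to 3005 ± 94.9 CPM. The largest losses in CPM were in Rag1, Satb1, Tcf7, Dntt, Rmnd5a and Cd4. Tcf7, which encodes the T cell factor TCF-1, went from 3910.3 ± 309 to 1738 ± 114 CPM and thus remained expressed in SP8.

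**Figure D3:**
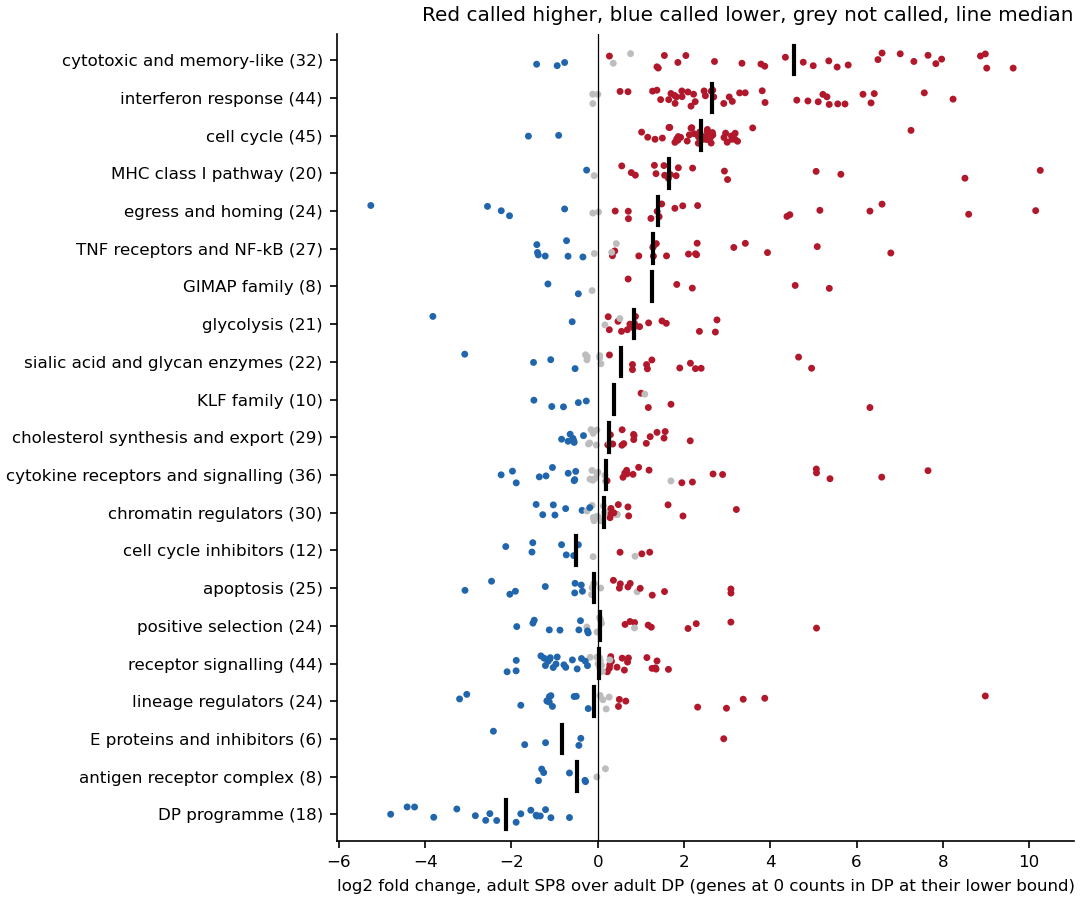
Log2 fold change of adult SP8 over adult DP for the tested members of 21 gene lists (number in brackets), with the median as a line; members at 0 counts in DP are drawn at their lower bound. All 18 genes of the DP programme were called lower, and 41 of 44 interferon response genes and 43 of 45 cell cycle genes were called higher. The lists were chosen with earlier results of these data known.

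The programme of the DP stage was lower throughout. Of the 18 listed genes, all tested, 18 were called lower and 0 higher. Their median log2 fold change was −2.12, and that over all tested genes was 0.037. As the list was chosen with earlier results of these data known, this count is a description and not a test. The recombinase led the list. Rag1 had 7649, 5068, 6476 and 7067 CPM in the DP libraries and 275, 147, 251 and 270.4 CPM in the SP8 libraries (log2 fold change −4.799, SE 0.28, adjusted p = 2.96e-14). DP replicate 2 was the lowest of the DP libraries and SP8 replicate 2 the lowest of the SP8 libraries, and the groups lay far apart. Its partner Rag2 went from 232 ± 28.5 to 10.9 ± 4.603 CPM (log2 fold change −4.42). Dntt, which encodes the terminal transferase that adds untemplated bases at receptor junctions, went from 2370.1 ± 142 to 392 ± 68.1 CPM. Bcl6, a transcriptional repressor, went from 226 ± 23.5 to 16.2 ± 1.18 CPM, Aqp11 from 446 ± 31.9 to 46.3 ± 10.7 CPM and Arpp21 from 725 ± 35.7 to 101 ± 20.9 CPM. Themis, a signalling protein that DP cells need for positive selection, went from 756 ± 114 to 204 ± 19.9 CPM. The chromatin organiser Satb1 went from 3548 ± 299.6 to 1031 ± 30.7 CPM. Smaller falls were measured for Ptcra, the pre-T cell receptor alpha chain of the DN stage (from 29.9 ± 2.28 to 19.01 ± 2.88 CPM), and for Bcl11b (from 1039 ± 91.7 to 489.99 ± 57.3 CPM).

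RNA of this programme remained in the SP8 libraries, and from which cells it came was not tested. Rag1 still had 236 ± 60.3 CPM in SP8, while splenic CD8 cells of the same age had 0.140 to 1.65 CPM. Cd24a, a surface protein that declines as thymocytes mature, had 243 ± 9.38 CPM in DP and 96.4 ± 19.00 CPM in SP8, and the label gives no gate on it. The summed level of the 18 genes was 19922 to 22302 CPM in DP and 3640.03 to 4159.8 CPM in SP8. Without SP8 replicate 2, 18 of the 18 genes were still called lower.

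Regulators of lineage choice moved in both directions. Of the 24 listed genes 8 were called higher, 12 lower and 4 not called, against 33.2% higher and 27.5% lower of all tested genes. Runx3 rose 10.4-fold (log2 fold change 3.37, SE 0.11, adjusted p = 1.92e-24). Its family member Runx1 went from 124 ± 8.21 to 56.9 ± 5.86 CPM and their shared partner Cbfb from 204 ± 10.8 to 289 ± 5.599 CPM. Zbtb7b, the CD4 lineage factor, was low in both groups and fell (log2 fold change −3.04). Gata3, which favours the CD4 lineage, went from 93.7 ± 19.4 to 43.00 ± 2.27 CPM. Myb, a factor of immature thymocytes, had 1111, 994, 1248 and 1111 CPM in the DP libraries and 130.4, 90.6, 136 and 128 CPM in the SP8 libraries (log2 fold change −3.202, SE 0.11, adjusted p = 2.64e-24), and no libraries of the groups overlapped. Patz1, a repressor known to act on coreceptor and lineage genes, went from 257 ± 14.9 to 114 ± 9.04 CPM. Foxo1, which drives quiescence, survival and homing genes, went from 46.8 ± 7.02 to 233 ± 30.9 CPM (log2 fold change 2.32), and Bach2, a repressor that restrains effector genes, from 11.95 ± 2.26 to 94.3 ± 14.6 CPM (log2 fold change 2.99). Tbx21, which encodes T-bet, went from 0.277 ± 0.297 to 4.03 ± 0.455 CPM. Ikzf1, Ikzf3, Foxp1 and Zbtb7a did not pass the test; Ikzf1 had 835 ± 48.4 CPM in DP and 868 ± 25.2 CPM in SP8. With 1 library left out, Ikzf3 was called higher without DP replicate 1 (log2 fold change 0.31), Foxp1 without SP8 replicate 4 (0.36), and Zbtb7a without DP replicate 3 (0.30) or SP8 replicate 4 (0.24).

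The E proteins hold thymocytes at the DP stage, and the Id proteins block their binding to DNA. Of 6 listed genes 5 were called lower and 1 higher. The E protein genes fell, Tcf12 (HEB) from 532 ± 27.5 to 229.99 ± 28.3 CPM, Tcf4 from 51.1 ± 6.56 to 15.8 ± 0.526 CPM and Tcf3 (E2A) from 369.7 ± 20.8 to 282 ± 7.12 CPM. Id2, the inhibitor associated with CD8 effector and innate-like cells, had 9.22, 14.5, 11.3 and 10.7 CPM in the DP libraries and 82.8, 108, 65.7 and 88.2 CPM in the SP8 libraries (log2 fold change 2.92, SE 0.16, adjusted p = 1.04e-17). Id3, which is induced by receptor signalling, went the other way, from 130.5 ± 16.98 to 96.4 ± 15.2 CPM, with overlap between the groups.

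Of 8 listed genes of the T cell receptor complex 6 were called lower, 0 higher and 2 not called. The constant regions Trbc1 and Trbc2 of the beta chain went from 1412 ± 133 to 545 ± 59.2 CPM and from 2098 ± 95.1 to 881 ± 98.9 CPM; they are near-identical copies, so the share of each is uncertain. Cd247, which encodes the signalling zeta chain, went from 499 ± 37.4 to 203 ± 14.4 CPM (log2 fold change −1.299). The alpha constant region Trac had 462 ± 71.7 CPM in DP and 379.8 ± 66.4 CPM in SP8 (log2 fold change −0.28), with overlap, and was not called without DP replicate 2 (−0.17), SP8 replicate 3 (−0.21) or SP8 replicate 4 (−0.23). Cd3e had 371 ± 46.3 CPM in DP and 366 ± 48.4 CPM in SP8 and Cd3g 657 ± 60.7 CPM in DP and 744 ± 114 CPM in SP8, and neither passed the test, although Cd3g was called higher without SP8 replicate 3 (log2 fold change 0.26).

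The signalling chain below the receptor was split. Of 44 listed genes 16 were called higher, 19 lower and 9 not called, against 33.2% higher and 27.5% lower of all tested genes. The median log2 fold change was 0.02. Under total-count scaling, which moved the median of all genes to −0.063, the split was 12 higher and 20 lower. The kinase Lck, which binds the coreceptors, went from 2426 ± 95.04 to 1132 ± 58.2 CPM, while the related kinase Fyn went from 201 ± 18.5 to 442 ± 37.7 CPM. The adaptors Lat (from 1297 ± 119.99 to 663 ± 49.9 CPM) and Lcp2 (from 410.3 ± 17.7 to 246 ± 9.58 CPM) fell, and Zap70, the kinase between receptor and adaptors, had 401 ± 38.6 CPM in DP and 355 ± 20.02 CPM in SP8 and did not pass the test; it was called lower without DP replicate 1 (log2 fold change −0.22) and under other scalings. Among proteins that damp the signal, the ubiquitin ligase gene Cbl went from 1056 ± 261 to 424 ± 72.1 CPM and its relative Cblb from 27.3 ± 4.04 to 85.1 ± 8.52 CPM. The adaptor-like inhibitor Sla, which lowers receptor levels on DP cells, fell from 739 ± 51.7 to 172 ± 13.3 CPM (log2 fold change −2.100). Cd2, an adhesion receptor, rose from 144 ± 30.9 to 367 ± 71.3 CPM. Malt1 (from 39.7 ± 5.18 to 103 ± 5.56 CPM), Nfatc2 (from 21.3 ± 3.44 to 53.9 ± 4.32 CPM) and Ppp3ca, a calcineurin subunit (from 34.99 ± 2.28 to 83.7 ± 11.7 CPM), also rose, and Nfatc3 fell from 614 ± 77.1 to 284 ± 32.5 CPM.

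Genes that receptor engagement induces showed no common direction. Of 24 genes linked to positive selection 9 were called higher, 9 lower and 6 not called, against 33.2% higher and 27.5% lower of all tested genes. Egr3 had 9.66, 11.7, 10.5 and 10.9 CPM in the DP libraries and 55.6, 56.1, 48.2 and 47.99 CPM in the SP8 libraries (log2 fold change 2.28, SE 0.12, adjusted p = 7.68e-19), whereas Egr1 had 134 ± 29.96 CPM in DP and 112 ± 10.9 CPM in SP8 and Egr2 23.97 ± 5.63 CPM in DP and 25.04 ± 1.999 CPM in SP8, and neither of these passed the test. Without DP replicate 1 Egr1 was called lower (log2 fold change −0.38). Nr4a1, which encodes NUR77, went from 89.4 ± 16.7 to 67.7 ± 8.06 CPM with overlap, while Nr4a3 went from 13.9 ± 3.01 to 31.1 ± 4.92 CPM. Cd69, the surface marker of recent selection, had 43.1, 58.3, 51.4 and 54.5 CPM in the DP libraries and 58.5, 64.4, 47.9 and 49.7 CPM in the SP8 libraries (log2 fold change 0.09, adjusted p = 0.576). Fos was high in replicate 2 of both groups, with 11.1, 25.1, 7.296 and 6.82 CPM in the DP libraries and 6.81, 58.7, 7.54 and 17.6 CPM in the SP8 libraries, and did not pass the test (adjusted p = 0.19); without DP replicate 2 it was called higher (log2 fold change 1.42). Cd28, the costimulatory receptor, fell from 251 ± 10.5 to 88.5 ± 17.1 CPM, and Itm2a from 120.2 ± 35.3 to 65.5 ± 11.4 CPM.

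Genes of migration and egress were mostly higher in SP8. Of 24 listed genes 17 were called higher, 5 lower and 2 not called, with a median log2 fold change of 1.40. S1pr1, the exit receptor, had 0.1104, 0.128, 0.317 and 0.188 CPM in the DP libraries and 217, 234, 196 and 223 CPM in the SP8 libraries (log2 fold change 10.15, SE 0.22, adjusted p = 1.76e-28). Klf2 had 3.42, 5.04, 4.44 and 2.400 CPM in the DP libraries and 238, 368, 282 and 304 CPM in the SP8 libraries (log2 fold change 6.31, SE 0.23, adjusted p = 1.42e-19). In both genes the lowest SP8 library was far above the highest DP library. Ccr7 rose 35.5-fold. Itgae, the CD103 chain that binds epithelial E-cadherin, had 1.16, 2.04, 1.903 and 0.565 CPM in the DP libraries and 533, 592, 485 and 504 CPM in the SP8 libraries (log2 fold change 8.599, SE 0.21, adjusted p = 1.14e-25), and its partner chain Itgb7 went from 35.3 ± 4.51 to 739 ± 89.5 CPM. S1pr4, another receptor of the same lipid, rose from 41.8 ± 8.95 to 164 ± 18.4 CPM. Other receptors of the list fell. Ccr9, the receptor of the thymic chemokine CCL25, went from 1203 ± 50.7 to 292 ± 19.6 CPM, Cxcr4, which keeps DP cells in the cortex, from 300.2 ± 34.4 to 63.6 ± 15.6 CPM, and Plxnd1, a semaphorin receptor known to act on thymocyte migration, had 931, 948, 976 and 1038 CPM in the DP libraries and 25.99, 18.8, 26.3 and 30.4 CPM in the SP8 libraries (log2 fold change −5.26, SE 0.15, adjusted p = 1.34e-25). Ccr4, a receptor of early medullary entry, fell from 45.6 ± 3.65 to 7.78 ± 1.31 CPM.

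Of the 10 KLF genes, Klf2 included, 4 were called higher and 5 lower. Klf13 went from 736 ± 92.7 to 425 ± 51.3 CPM, Klf3 from 219 ± 22.97 to 105 ± 13.9 CPM and Klf7 from 128 ± 17.1 to 45.8 ± 6.13 CPM, all lower in SP8. Klf4, Klf9 and Klf11 were called higher at low levels; Klf11 had 3.18 ± 0.854 CPM in DP and 7.14 ± 2.25 CPM in SP8. Without SP8 replicate 2 the calls of Klf4 (log2 fold change 0.47) and Klf9 (0.92) were lost, and that of Klf9 also without DP replicate 1 (0.80).

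MHC class I genes were low in DP and high in SP8. Class I molecules show peptides cut by the proteasome and carried into the endoplasmic reticulum by the TAP transporter, and NLRC5 is the transactivator of these genes. Of 20 listed genes 18 were called higher, 1 lower and 1 not called, with a median log2 fold change of 1.66. H2-K1 had 47.3, 67.4, 59.95 and 49.9 CPM in the DP libraries and 2703, 3197, 2592 and 2669 CPM in the SP8 libraries (log2 fold change 5.64, SE 0.14, adjusted p = 1.11e-27). B2m, the invariant light chain, had 181, 185, 189 and 193 CPM in the DP libraries and 1469.6, 1798, 1194 and 1563 CPM in the SP8 libraries (log2 fold change 3.01, SE 0.11, adjusted p = 1.94e-23). Both genes separated the groups in all libraries. Nlrc5 went from 11.1 ± 1.57 to 371 ± 45.4 CPM, a 33.4-fold difference, H2-D1 from 256 ± 20.03 to 1964 ± 275 CPM, Tap1 from 148 ± 11.5 to 430.4 ± 37.01 CPM and the immunoproteasome subunit Psmb9 from 34.4 ± 3.41 to 158 ± 18.8 CPM. H2-Q7 went from 1.13 ± 0.642 to 402 ± 32.1 CPM and H2-Q6 from 0.0554 ± 0.0654 to 78.1 ± 7.07 CPM; these are near-identical copies and their counts are uncertain. Tap2 was the gene called lower (from 273 ± 35.8 to 228 ± 16.7 CPM; not called without DP replicate 2, log2 fold change −0.17), and Tapbpl had 106 ± 7.79 CPM in DP and 101 ± 3.22 CPM in SP8 and did not pass the test.

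Interferon response genes were among the most uniform of the lists. Of 44 listed genes, all tested, 41 were called higher, 0 lower and 3 not called, with a median log2 fold change of 2.65. Ifit3, an RNA-binding antiviral protein gene, had 0.993, 0.638, 1.21 and 0.753 CPM in the DP libraries and 80.2, 90.6, 61.7 and 58.2 CPM in the SP8 libraries (log2 fold change 6.34, SE 0.28, adjusted p = 2.24e-19). Ifit1 went from 1.73 ± 0.263 to 68.9 ± 13.03 CPM, Isg15, a ubiquitin-like modifier, from 4.12 ± 1.25 to 39.8 ± 11.5 CPM, and Mx1 from 0.361 ± 0.278 to 29.7 ± 3.89 CPM. Slfn1, a gene of the Schlafen family, had 0.993, 0.829, 1.08 and 0.329 CPM in the DP libraries and 156, 159, 152 and 132 CPM in the SP8 libraries (log2 fold change 7.57, SE 0.18, adjusted p = 3.31e-28), and Ifi213 went from 0.778 ± 0.309 to 229 ± 32.96 CPM. Transcription factor genes of the IRF family rose as well, Irf7 from 9.71 ± 1.905 to 142 ± 11.7 CPM, Irf1 from 40.4 ± 4.96 to 172 ± 12.9 CPM and Irf9 from 39.6 ± 5.96 to 137 ± 6.84 CPM. Stat2, Igtp and Ly6e did not pass the test; Stat2 had 86.1 ± 13.3 CPM in DP and 79.6 ± 6.48 CPM in SP8. Of the receptor genes for type I interferon, Ifnar1 had 156 ± 5.64 CPM in DP and 149 ± 3.54 CPM in SP8 (not called) and Ifnar2 went from 41.8 ± 7.11 to 66.4 ± 3.19 CPM (called higher). Splenic CD8 cells had less of Ifit3 than SP8, at 16.9 to 39.9 CPM, and adult DN cells had 10.7 to 13.7 CPM. The other genes of the list are not given by stage here. Ifit1bl1, outside the list, went the other way, with 41.5 ± 3.11 CPM in adult SP8 and 84.9 ± 7.40 CPM in adult splenic CD8.

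The promoters of these genes hold letters of known factor sites. From RefSeq tables on build GRCm38.p6, 1 promoter per gene of 300 bases (250 before the start and 50 after) was searched on both strands for GAAANNGAA, the core of the interferon-stimulated response element (ISRE). It was found in 20 of the 33 interferon response genes with a promoter in the table (60.6%), in 4 of 17 MHC class I pathway genes (23.5%), in 8.57% of all 27025 promoters and in 7.45% of the 10812 promoters of tested genes. A match is a description of letters and not a site of binding. The 250 bases before the start of 3 of the genes above are shown because each holds 3 matches. These overlap in part in Ifit1 and Isg15 and lie apart in Ifit3. Matches are in capitals, and 5′ to 3′ runs along the gene. Ifit1 lies at chr19:34640639-34640888 (plus strand), Ifit3 at chr19:34583279-34583528 (plus strand) and Isg15 at chr4:156200819-156201068 (minus strand).
Ifit1: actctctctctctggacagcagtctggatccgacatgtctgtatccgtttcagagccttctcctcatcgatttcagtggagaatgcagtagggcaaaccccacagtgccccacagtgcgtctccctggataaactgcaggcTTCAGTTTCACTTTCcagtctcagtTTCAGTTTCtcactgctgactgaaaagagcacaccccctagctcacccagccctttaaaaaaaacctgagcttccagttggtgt
Ifit3: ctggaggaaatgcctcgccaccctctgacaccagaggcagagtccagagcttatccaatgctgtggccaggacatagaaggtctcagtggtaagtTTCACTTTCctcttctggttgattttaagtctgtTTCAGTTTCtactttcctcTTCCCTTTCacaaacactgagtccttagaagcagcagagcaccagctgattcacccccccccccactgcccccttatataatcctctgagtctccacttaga
Isg15: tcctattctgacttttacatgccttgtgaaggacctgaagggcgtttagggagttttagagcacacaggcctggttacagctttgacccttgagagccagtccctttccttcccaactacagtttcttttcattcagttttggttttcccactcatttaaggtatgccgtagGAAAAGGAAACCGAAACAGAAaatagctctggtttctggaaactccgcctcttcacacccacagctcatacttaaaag

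In B2m, shown next, the capitals mark 1 ISRE match (GAAACTGAA, 139 bases before the start) and 1 match to CCAAT, the NF-Y motif, on the opposite strand, 53 bases before the start. CCAAT was found in 14 of 17 MHC class I pathway promoters (82.4%), against 37.9% of all promoters and 38.6% of those of tested genes. TGACGTCA, the cyclic AMP response element, was found in 0 of the 17, in 1.88% of all promoters and in 3.14% of those of tested genes. The stretch lies at chr2:122147437-122147686 (plus strand).
B2m: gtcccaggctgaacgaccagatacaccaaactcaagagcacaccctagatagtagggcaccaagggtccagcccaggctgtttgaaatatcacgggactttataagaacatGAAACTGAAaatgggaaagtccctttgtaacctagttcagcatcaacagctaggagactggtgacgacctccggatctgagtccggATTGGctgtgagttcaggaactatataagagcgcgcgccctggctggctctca

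Markers of other cells that show class I and interferon genes were also higher in SP8, at low levels. Of 18 myeloid and dendritic markers 11 were called higher and 1 lower. Their summed level without Bst2, itself an interferon response gene, was 11.6 to 17.9 CPM in DP and 40.7 to 65.9 CPM in SP8. Cd74, the invariant chain of MHC class II, went from 1.53 ± 0.116 to 19.6 ± 2.41 CPM, and Mpeg1 from 0.119 ± 0.1399 to 3.78 ± 1.55 CPM, while S100a8 and S100a9 had 0 counts in SP8. The part of such cells in the interferon and class I results was not tested.

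Cytokine receptor genes went both ways. Of 36 listed genes 17 were called higher, 10 lower and 9 not called. Il7r, the receptor chain through which thymocytes get survival signals from IL-7, had 2.59, 6.06, 5.01 and 2.63 CPM in the DP libraries and 139, 141, 128 and 128 CPM in the SP8 libraries (log2 fold change 5.07, SE 0.16, adjusted p = 7.63e-25). Il2rb, shared by the receptors of IL-2 and IL-15, had 0.773, 1.28, 1.21 and 0.847 CPM in the DP libraries and 201, 214, 206 and 197 CPM in the SP8 libraries (log2 fold change 7.66, SE 0.19, adjusted p = 2.11e-27). Il6ra went from 0.699 ± 0.2802 to 65.99 ± 14.4 CPM, Il27ra from 47.4 ± 2.86 to 302 ± 10.5 CPM and Tgfbr2 from 63.5 ± 7.78 to 291 ± 8.87 CPM. The kinase gene Jak3, which works with the common gamma chain, went from 34.98 ± 2.96 to 260.02 ± 16.8 CPM, whereas the gamma chain gene Il2rg went from 192 ± 11.1 to 288 ± 27.4 CPM. Cish, a feedback inhibitor induced by STAT5, rose from 0.364 ± 0.169 to 15.1 ± 0.693 CPM, and Socs1, the inhibitor that holds cytokine signals down in DP cells, fell from 254 ± 40.7 to 53.9 ± 3.001 CPM. Ifngr1 (from 482 ± 45.3 to 123 ± 10.8 CPM) and Il4ra (from 309 ± 19.9 to 135 ± 7.42 CPM) fell, as did Stat5b (from 609 ± 6.08 to 294 ± 12.7 CPM).

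The TNF receptor and NF-kB list had 17 of 27 genes called higher, 7 lower and 3 not called, with a median log2 fold change of 1.28. Relb went from 11.1 ± 2.57 to 54.4 ± 8.92 CPM, Nfkb1 from 115 ± 8.38 to 280.1 ± 7.87 CPM and the atypical inhibitor Bcl3 from 0.306 ± 0.139 to 35.2 ± 2.302 CPM (log2 fold change 6.79). Tnfrsf1b, a TNF receptor, had 13.3, 16.01, 17.1 and 15.01 CPM in the DP libraries and 141, 154, 129 and 123 CPM in the SP8 libraries (log2 fold change 3.16, SE 0.09, adjusted p = 2.71e-26), and Tnfrsf9 (4-1BB) went from 2.204 ± 1.54 to 32.7 ± 5.37 CPM. Ltb, a lymphotoxin that acts on medullary epithelium, went from 218 ± 32.1 to 559 ± 72.8 CPM. Cd27, Tnfaip3 and Tnfrsf1a fell, Cd27 from 552 ± 9.88 to 208 ± 7.72 CPM, and Rela had 121 ± 20.01 CPM in DP and 115 ± 5.51 CPM in SP8 and did not pass the test.

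Genes of cytotoxic and memory-like T cells were higher in SP8, many of them at low levels. Of 32 listed genes 27 were called higher, 3 lower and 2 not called. The list included 9 genes at 0 counts in DP; the median log2 fold change was 5.85 as fitted and 4.56 with those genes at their lower bound. Ctsw, a cathepsin of cytotoxic cells, had 6.07, 7.65, 10.7 and 5.69 CPM in the DP libraries and 409, 476, 394 and 389.6 CPM in the SP8 libraries (log2 fold change 5.81, SE 0.16, adjusted p = 1.18e-25). Nkg7, a granule membrane protein gene, had 0.773, 0.255, 0.254 and 0.0941 CPM in the DP libraries and 175, 220.5, 146 and 178 CPM in the SP8 libraries (log2 fold change 9.02, SE 0.22, adjusted p = 3.61e-27). Both genes lay far above DP in every SP8 library. Prf1, the pore-forming perforin, went from 6.33 ± 1.55 to 41.4 ± 6.800 CPM, and Gzma from 19.6 ± 2.095 to 50.8 ± 8.83 CPM. The protease gene Gzmb had 0 counts in DP and 1.19 ± 0.541 CPM in SP8, and the cytokine gene Ifng 0 counts in DP and 0.618 ± 0.452 CPM in SP8. Crtam went from 0.187 ± 0.305 to 28.6 ± 5.65 CPM, Cd160 from 1.098 ± 0.174 to 22.8 ± 2.07 CPM and Ly6c2 from 0.0913 ± 0.0848 to 43.2 ± 8.704 CPM; Ly6c2 has a near-identical neighbour gene, so its count is uncertain. Anxa2 (from 406 ± 39.6 to 152 ± 21.2 CPM) and Itgb1 (from 259.9 ± 14.5 to 153 ± 18.2 CPM) fell. With the 8 libraries fitted alone, 21 genes were called higher and 3 lower.

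The letters TGTGGT, the core of the RUNX motif, were found in 14 of the 24 promoters of this list (58.3%), in 16.9% of all promoters and in 13.3% of those of tested genes. Nkg7 (chr7:43436888-43437137 (plus strand)) and Prf1 (chr10:61297586-61297835 (plus strand)) are shown as members that rose and hold 1 match each, in capitals, both on the opposite strand as ACCACA.
Nkg7: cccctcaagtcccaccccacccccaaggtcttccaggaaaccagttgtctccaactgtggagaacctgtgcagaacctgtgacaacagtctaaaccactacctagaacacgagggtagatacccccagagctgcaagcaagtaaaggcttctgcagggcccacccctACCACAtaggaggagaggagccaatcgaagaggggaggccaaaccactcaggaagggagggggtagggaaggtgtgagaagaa
Prf1: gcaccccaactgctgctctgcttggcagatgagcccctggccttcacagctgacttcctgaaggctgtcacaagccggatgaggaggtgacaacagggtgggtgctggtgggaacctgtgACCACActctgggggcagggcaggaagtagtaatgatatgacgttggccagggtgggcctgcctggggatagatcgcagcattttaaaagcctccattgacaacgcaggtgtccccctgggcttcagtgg

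Cells other than conventional CD8 thymocytes could share some of these genes. Among 10 NK cell markers, 5 were called higher, Nkg7 among them, 0 lower and 5 not called. In the fit of the 8 libraries alone 1 was called higher and 0 lower. Ncr1 and Klra4 had 0 counts in all 8 libraries. The 9 markers other than Nkg7 summed to 0.255 to 1.59 CPM in DP and 1.52 to 3.46 CPM in SP8. Of 10 gamma-delta and NKT markers measured, 7 were called higher and 2 lower. Tcrg-C2, a gamma chain constant region, went from 0.249 ± 0.1401 to 6.79 ± 1.604 CPM and the delta constant region Trdc from 27.9 ± 3.28 to 62.2 ± 11.4 CPM, and Zbtb16, the factor of innate-like T cells, had 0 counts in DP and 0.0329 ± 0.0657 CPM in SP8. Of 10 markers of the CD4 lineage 4 were called higher, 4 lower and 2 not called. Izumo1r went from 2.45 ± 0.772 to 56.1 ± 11.9 CPM and Foxp3 from 0.306 ± 0.217 to 2.703 ± 0.574 CPM, while Cd4, Zbtb7b and Ccr4, with values given above, were among those called lower. The part of such cells in the cytotoxic result was not tested.

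A pair of survival genes went in opposite directions. Bcl2 had 22.7, 34.6, 31.4 and 26.2 CPM in the DP libraries and 234, 258, 247 and 236 CPM in the SP8 libraries (log2 fold change 3.09, SE 0.10, adjusted p = 1.40e-24). Bcl2l1, which encodes BCL-XL, the survival protein of DP cells, had 339.9, 421, 332 and 403 CPM in the DP libraries and 50.4, 34.9, 45.2 and 46.7 CPM in the SP8 libraries (log2 fold change −3.08, SE 0.10, adjusted p = 2.62e-25). In neither gene did the groups overlap. The third member, Mcl1, had 593 ± 65.6 CPM in DP and 536 ± 59.3 CPM in SP8 and did not pass the test. Over the whole apoptosis list, 25 of 27 genes were tested, 10 called higher and 9 lower, against 33.2% higher and 27.5% lower of all tested genes. The killer genes Bmf (from 157 ± 19.5 to 28.6 ± 3.27 CPM) and Bbc3, which encodes PUMA (from 63.1 ± 6.296 to 16.8 ± 3.13 CPM), fell, as did the death receptor Fas (from 96.9 ± 3.43 to 23.6 ± 2.74 CPM), and Bcl2l11, which encodes BIM, went from 88.6 ± 9.02 to 69.2 ± 7.18 CPM. Of the 8 GIMAP genes, small GTPases tied to lymphocyte survival, 5 were called higher and 2 lower; Gimap3 went from 10.00 ± 3.36 to 409 ± 19.9 CPM and Gimap4 from 13.6 ± 3.63 to 322 ± 11.6 CPM, and these neighbours are similar in sequence, so their counts are uncertain.

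Cell cycle genes were higher in SP8 than in DP. Of 45 listed genes, all tested, 43 were called higher and 2 lower, with a median log2 fold change of 2.40. In all 45 the groups did not overlap, against 51% of all tested genes. Mki67, the Ki-67 antigen, had 128, 48.3, 88.1 and 83.4 CPM in the DP libraries and 552, 244, 649 and 646 CPM in the SP8 libraries (log2 fold change 2.59, SE 0.31, adjusted p = 8.91e-08). SP8 replicate 2 had less than any other SP8 library and DP replicate 2 less than any other DP library. Top2a went from 75.9 ± 23.3 to 608 ± 144 CPM, Cdk1, the kinase of mitotic entry, from 5.58 ± 1.16 to 47.8 ± 10.7 CPM, and its partner Ccnb2 from 22.9 ± 3.51 to 71.9 ± 10.5 CPM. Replication genes rose too, Mcm5 from 80.6 ± 6.600 to 438 ± 56.8 CPM and Rrm2 from 59.3 ± 13.4 to 279 ± 42.2 CPM. The D cyclins, which couple growth signals to the cycle, went in opposite directions. Ccnd2 had 4.58, 5.55, 7.36 and 2.16 CPM in the DP libraries and 736, 754, 827 and 630.01 CPM in the SP8 libraries (log2 fold change 7.26, SE 0.23, adjusted p = 1.05e-21). It was also high in adult splenic CD8 cells, at 575 to 721 CPM, where Mki67 had 3.15 to 11.3 CPM. Ccnd3 had 1307, 1449, 1304 and 1318 CPM in the DP libraries and 479, 416, 417 and 454 CPM in the SP8 libraries (log2 fold change −1.61, SE 0.08, adjusted p = 7.12e-20). E2f2 was the other gene that fell (from 413 ± 25.3 to 220.4 ± 29.6 CPM). Among inhibitors of the cycle, 12 of 13 tested, 3 were called higher and 7 lower; Btg2 went from 653 ± 101 to 149 ± 24.04 CPM and Cdkn1b (p27) from 376 ± 25.2 to 132 ± 11.6 CPM.

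The cell cycle genes summed to 3391 to 3704 CPM in the DP libraries, 9202 to 9728 CPM in 3 SP8 libraries and 7114 CPM in SP8 replicate 2. Without that library 43 genes were still called higher and 2 lower. The SP8 sort had no antibody against the T cell receptor, so its gate could also hold immature CD8 single positive cells, which divide on their way from DN to DP. Of 16 genes of early progenitors 7 were called higher in SP8 and 4 lower. Kit, the receptor of stem cell factor, had 0.997 ± 0.363 CPM in DP and 22.5 ± 1.31 CPM in SP8, Notch1 went from 142 ± 12.7 to 362 ± 58.7 CPM and its target Dtx1 from 13.1 ± 3.401 to 228 ± 47.6 CPM, while Ptcra and Il2ra, genes of the DN stage, were lower in SP8 than in DP. Adult splenic CD8 cells had 3.15 to 11.3 CPM of Mki67, and adult DN cells 462 to 888 CPM. Of Kit, adult splenic CD8 cells had 0.938 to 1.86 CPM and adult DN cells 54.8 to 63.9 CPM. Among adult stages Dtx1 was highest in splenic CD8 cells, at 496 to 744 CPM, against 50.7 to 80.4 CPM in DN cells. The part of immature CD8 single positive cells in the cell cycle result was not tested.

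**Figure D4:**
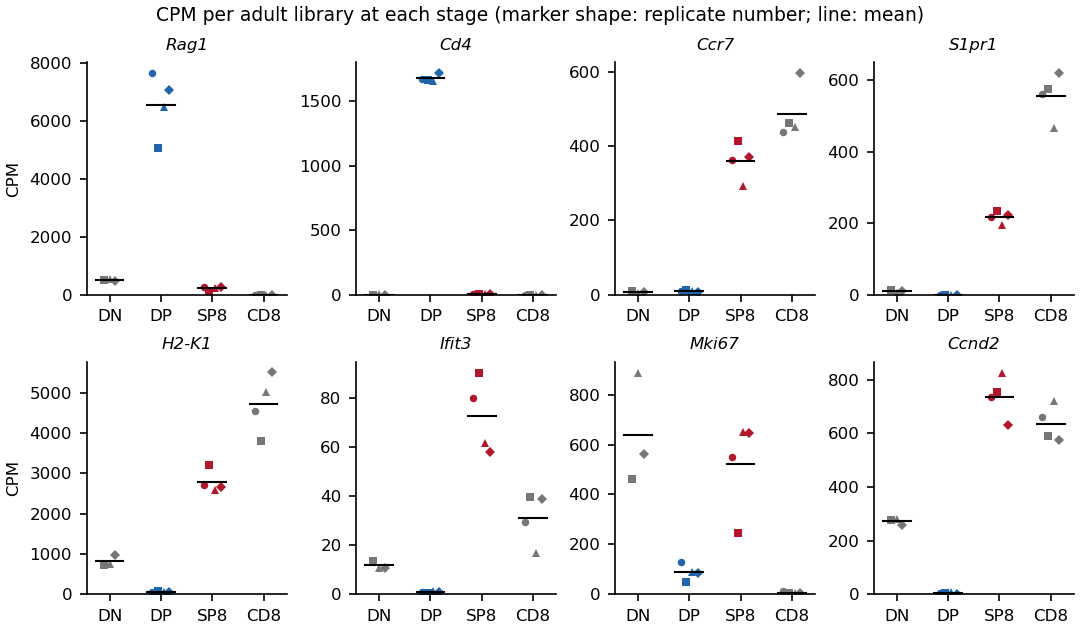
CPM of 8 genes in each adult library at the stages DN (n = 3), DP, SP8 and CD8 (n = 4 each), with the marker shape giving the replicate number and the line the mean. Rag1 and Cd4 peak in DP, Ccr7, S1pr1 and H2-K1 are higher still in splenic CD8, and Ifit3 is highest in SP8. Mki67 is high in DN and SP8 but near 0 in splenic CD8, whereas Ccnd2 is high in both SP8 and splenic CD8.

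Motifs known from cell cycle promoters were searched in this list. CCAAT (NF-Y) was found in 27 of 36 promoters (75%), against 37.9% of all promoters and 38.6% of those of tested genes, and TTTGAA, the cell cycle homology region (CHR), in 15 of 36 (41.7%), against 18.1% of all and 12.4% of those of tested genes. TTCCCGC, an E2F motif, was found in 8 of 36 (22.2%), against 4.66% of all and 8.35% of those of tested genes. Cdk1 (chr10:69352913-69353162 (minus strand)) and Ccnb2 (chr9:70421555-70421804 (minus strand)) are shown because they hold both NF-Y and CHR letters, which are in capitals on either strand.
Cdk1: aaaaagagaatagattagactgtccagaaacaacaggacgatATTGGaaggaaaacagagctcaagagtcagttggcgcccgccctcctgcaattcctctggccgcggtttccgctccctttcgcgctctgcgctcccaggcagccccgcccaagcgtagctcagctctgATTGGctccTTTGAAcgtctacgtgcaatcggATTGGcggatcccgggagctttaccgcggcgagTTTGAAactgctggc
Ccnb2: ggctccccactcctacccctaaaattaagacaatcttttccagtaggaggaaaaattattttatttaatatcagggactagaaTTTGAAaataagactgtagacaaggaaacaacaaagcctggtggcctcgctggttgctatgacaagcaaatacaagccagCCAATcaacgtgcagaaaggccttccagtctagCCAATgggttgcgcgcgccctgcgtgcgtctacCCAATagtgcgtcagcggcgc

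Genes of glycolysis and of cholesterol synthesis were more often called higher than lower, as were all tested genes (33.2% higher and 27.5% lower). Of 21 glycolysis genes 17 were called higher and 2 lower, with a median log2 fold change of 0.83. Ldha went from 351 ± 18.01 to 796 ± 75.7 CPM and Tpi1 from 30.9 ± 2.71 to 159 ± 20.9 CPM, and the hexokinase Hk2 from 2.39 ± 0.412 to 15.8 ± 2.98 CPM. Ldhb, the lactate dehydrogenase subunit of oxidative tissue, had 609.8, 746, 598 and 695 CPM in the DP libraries and 49.2, 47.1, 42.3 and 48.96 CPM in the SP8 libraries (log2 fold change −3.82, SE 0.10, adjusted p = 6.66e-27), the reverse of Ldha. Of 29 genes of cholesterol synthesis and export 15 were called higher, 7 lower and 7 not called, with a median log2 fold change of 0.27. Their summed level overlapped between the groups, at 1455 to 1585 CPM in DP and 1288 to 1592 CPM in SP8. Cyp51 went from 13.3 ± 1.31 to 39.3 ± 10.6 CPM and Hmgcs1 from 31.6 ± 2.68 to 68.9 ± 8.42 CPM, but Dhcr7 (from 74.3 ± 7.02 to 46.1 ± 4.82 CPM), which acts at the end of the pathway, fell, and the cholesterol exporter Abca1 had 73.2 ± 8.42 CPM in DP and 71.6 ± 5.87 CPM in SP8 and did not pass the test. The sterol response letters TCACCCCAC were found in 1 of 21 promoters of this list (4.76%), against 0.522% of all and 0.518% of those of tested genes.

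Of 22 enzymes that build sialic acid and other glycans, 12 were called higher and 4 lower. St3gal1, the sialyltransferase that caps O-glycans as CD8 thymocytes mature, went from 40.8 ± 1.23 to 196 ± 3.96 CPM, and St6gal1 from 77.4 ± 8.89 to 135 ± 11.6 CPM, whereas St3gal2 fell from 21.5 ± 1.505 to 2.56 ± 0.537 CPM. Of 30 chromatin regulators 12 were called higher, 7 lower and 11 not called, near the 33.2% higher and 27.5% lower of all tested genes. The maintenance DNA methyltransferase Dnmt1, which works at replication forks, went from 177 ± 22.4 to 549.6 ± 98.8 CPM, and Dnmt3b from 2.17 ± 0.276 to 20.1 ± 1.82 CPM. Hdac7, a histone deacetylase that restrains selection genes, fell from 1229 ± 102 to 457 ± 37.2 CPM, and Hdac4 rose from 16.6 ± 4.12 to 64.9 ± 3.97 CPM. Smarca4, the motor of a nucleosome remodeller, fell from 684 ± 79.6 to 335 ± 34.4 CPM. Under total-count scaling the chromatin split was 11 higher and 11 lower.

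The E-box letters CAGNTG were found in 8 of 15 promoters of the DP programme (53.3%), against 51.1% of all promoters and 44.4% of those of tested genes. CCNCACCC, a KLF motif, was found in 5 of 16 egress and homing promoters (31.2%), against 16.4% of all and 19.5% of those of tested genes. GCGNGGGCG, an EGR motif, was found in 3 of 18 positive selection promoters (16.7%), against 5.55% of all and 10% of those of tested genes.

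The same step in neonates shares no library with the adult one, and the difference between both, neonatal minus adult, was tested as an interaction. It was called for 3588 of 16461 genes (21.8%), 1819 higher and 1769 lower. Under total-count scaling, which moved the median of this difference over all genes from −0.028 to −0.117, the calls were 1291 higher and 2257 lower. Of the 9994 genes called in the adult step, 2660 (26.6%) also had a called difference. Among genes that rose in adults the difference was negative in 630 and positive in 1021, and among genes that fell it was positive in 400 and negative in 609. In 146 of them the neonatal step was called in the opposite direction.

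The lowest values among genes called in both tests were in H2-Q6, Kit, Dtx1, Gpr55 and Ggt5. Kit went from 0.997 ± 0.363 to 22.5 ± 1.31 CPM in adults and from 13.5 ± 0.947 to 18.8 ± 1.25 CPM in neonates (difference of log2 fold changes −3.999, SE 0.20, adjusted p = 1.01e-16). The SP8 levels of both ages lay close, and neonatal DP lay above adult DP. Dtx1, a Notch target, went from 13.1 ± 3.401 to 228 ± 47.6 CPM in adults and from 71.97 ± 16.4 to 114 ± 3.11 CPM in neonates (difference of log2 fold changes −3.48, SE 0.25, adjusted p = 5.59e-11). Gpr55, a lipid receptor, went from 1.51 ± 0.6595 to 49.99 ± 1.73 CPM and from 2.47 ± 0.396 to 7.24 ± 1.06 CPM (difference of log2 fold changes −3.46, SE 0.36, adjusted p = 1.56e-08), where the DP levels were close and adult SP8 was higher. Ggt5 went from 0.567 ± 0.314 to 21.7 ± 2.66 CPM and from 0.565 ± 0.285 to 2.65 ± 0.3098 CPM. H2-Q6 went from 0.0554 ± 0.0654 to 78.1 ± 7.07 CPM and from 0.0719 ± 0.113 to 1.08 ± 0.188 CPM, with the doubt on its counts named above.

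The highest values were in Golm1, Ifit1bl1, Papss2, Il2rb and Tns3. Golm1, a Golgi protein gene, went from 0.0969 ± 0.0857 to 24.3 ± 3.22 CPM in adults; in neonates it had 0 counts in DP and 18.2 ± 1.74 CPM in SP8, so the size of the difference depends on the prior count. Its call ended without DP replicate 2 (3.04 as the difference of log2 fold changes), DP replicate 4 (3.17) or SP8 replicate 3 (3.46). Ifit1bl1 went from 1.35 ± 0.629 to 41.5 ± 3.11 CPM in adults and from 0.0281 ± 0.0326 to 8.26 ± 1.21 CPM in neonates, where DP held 2 counts. Il2rb went from 1.03 ± 0.252 to 204 ± 7.47 CPM and from 0.186 ± 0.276 to 126 ± 5.73 CPM (difference of log2 fold changes 1.76, SE 0.48, adjusted p = 0.00729), with the lower SP8 level in neonates. Papss2 fell from 47.4 ± 4.33 to 0.938 ± 0.358 CPM in adults and from 28.4 ± 1.62 to 2.17 ± 0.4701 CPM in neonates (difference of log2 fold changes 1.89, SE 0.37, adjusted p = 2.86e-04), and Tns3, which encodes a tensin, from 44.6 ± 4.09 to 8.96 ± 1.87 CPM and from 25.3 ± 1.88 to 14.5 ± 1.98 CPM (difference of log2 fold changes 1.502, SE 0.23, adjusted p = 1.49e-05).

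The lists differed between the ages in some members. Lower and higher in this paragraph refer to the difference of log2 fold changes, neonatal minus adult, and not to expression in neonates. In the cytokine receptor list the difference was called in 22 of 36 genes, 19 of them lower. For the receptor signalling list it was called in 18 of 44, 15 of them lower. In glycolysis it was called in 15 of 21 genes, 14 of them higher, and in cholesterol synthesis and export in 14 of 29, 11 of them higher. For chromatin regulators it was called in 17 of 30, 12 of them lower, and for GIMAP genes in 6 of 8, 5 of them lower. In the cell cycle list it was called in 9 of 45, near the 21.8% of all tested genes, 8 of them higher. Ldha went from 351 ± 18.01 to 796 ± 75.7 CPM in adults and from 274 ± 37.3 to 1339.8 ± 83.5 CPM in neonates (difference of log2 fold changes 1.11, SE 0.13, adjusted p = 1.53e-07). Of the DP programme it was called in 7 of 18, 6 of them higher, with Rag1 going from 7609 ± 591 to 552 ± 81.1 CPM in neonates (difference of log2 fold changes 1.02, SE 0.34, adjusted p = 0.0323). Abca1, not called in the adult step, went from 48.8 ± 6.13 to 1.43 ± 0.693 CPM in neonates (difference of log2 fold changes −5.07, SE 0.26, adjusted p = 7.58e-16). Every count of these is to be read against the 21.8% of all tested genes.

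**Figure D5:**
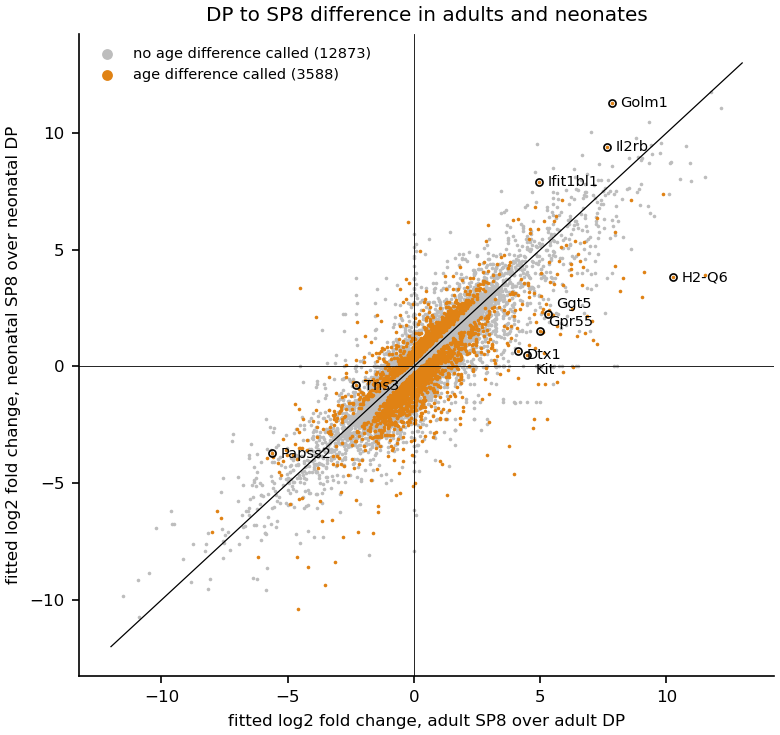
Fitted log2 fold change of SP8 over DP in neonates (y axis) against adults (x axis) for the 16461 tested genes, with the 3588 genes whose difference between ages was called in orange and the line of equal change. The circled genes are the 5 highest and 5 lowest differences among genes called in both tests with at least 20 CPM; Kit and Dtx1 lie near 0 in neonates.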

How the data were processed

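Libraries carried TruSeq barcodes and were built from polyadenylated RNA, per the labels. The deposited values were raw counts of reads per Ensembl gene, with 1 column per library and no pooling. Trim Galore, STAR 2.7.10a and the build mm10 are named in the submitters' processing notes; the counting tool and its use of strand are not given in the sources used here. The table held 53700 genes, of which 52093 (97.0%) had a symbol in GENCODE mouse release 21. Columns were matched to samples by their labels, and 0 columns were left unused.

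Counts were fitted with edgeR 4.0.16 (R 4.3.3). The function filterByExpr, given the 8 groups, a minimum count of 10 and a minimum total of 15, kept 16461 genes. Libraries were scaled by TMM, and a model of group means over all 31 libraries was fitted with robust glmQLFit, so that groups shared 1 estimate of the spread. The standard error (SE) of a log2 fold change was taken as its size over the square root of F. Where a group had 0 counts, a fold is a lower bound against 3 counts over the group, and where it had 1 to 3, an exact Poisson interval covers counting error only. The script was tested on simulated counts in which few genes changed, so it was not tested where most genes change. The alternatives were limma 3.58.1 (voom), DESeq2 1.42.0, other scalings, filters and left-out libraries. Promoters came from RefSeq tables on GRCm38.p6, with the first listed start of each gene.

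The members, gene lists and motifs were chosen with earlier results of these data known. The text names list members, the 12 largest rises and the 12 largest falls among called genes with at least 20 CPM and no overlap, the 6 largest differences in CPM each way, and the 5 highest and lowest called age differences; predicted genes, pseudogenes, histone genes and receptor segments were left out of rankings. As mice behind a replicate are not described, p-values rest on the spread between libraries within the groups, estimated over all 31 libraries. Some list members are counted but not reported here by name.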

Additional observations from a re-analysis of the deposited data

Results flagged for a closer look

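For the 225 named genes, the highest and lowest library of each group of 4 were compared with the rest by Dixon's test at its 95% critical value, which chance passes in about 1 of 20 groups. Of 450 groups, 32 had a library apart, 13 of them SP8 replicate 2 and 9 DP replicate 2. SP8 replicate 2 lay above the other SP8 libraries in Eomes (26.2 CPM against 19.8 to 20.3 CPM), Il6ra (87.6 CPM against 58.02 to 59.8 CPM) and Irf7 (159 CPM against 135 to 139 CPM). Also above them in that library were Klf4 (5.72 CPM against 0.583 to 1.24 CPM), S1pr4 (191 CPM against 151 to 158 CPM) and Tnfaip3 (118 CPM against 65.6 to 71.7 CPM). SP8 replicate 2 lay below the other SP8 libraries in Cdk1 (31.8 CPM against 52.2 to 53.7 CPM), Dhcr7 (38.9 CPM against 48.3 to 48.9 CPM) and Patz1 (100.04 CPM against 118 to 119 CPM). Also below them in that library were Rrm2 (216 CPM against 293 to 305 CPM), Tcf12 (188 CPM against 240.4 to 251 CPM) and Tns3 (6.18 CPM against 9.63 to 10.2 CPM). Also below them in that library was Top2a (391 CPM against 671 to 686 CPM).

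DP replicate 2 lay above the other DP libraries in Ccnd3 (1449 CPM against 1304 to 1318 CPM), Cd2 (189.9 CPM against 124 to 133 CPM) and Cd44 (8.87 CPM against 5.74 to 6.07 CPM). Also above them in that library were Ifnar1 (164 CPM against 153 to 154 CPM), Itm2a (172 CPM against 94.97 to 108 CPM) and Ppp3ca (38.4 CPM against 33.6 to 34.2 CPM). Also above them in that library were Rflnb (0.446 CPM against 0 to 0.0634 CPM), Smoc1 (129.5 CPM against 95.2 to 98.6 CPM) and St6gal1 (90.7 CPM against 72.2 to 74.1 CPM). SP8 replicate 1 lay above the other SP8 libraries in Gpr55 (52.6 CPM against 48.99 to 49.3 CPM) and Stat5b (313 CPM against 287 to 290.3 CPM). SP8 replicate 3 lay above the other SP8 libraries in Malt1 (111 CPM against 99.5 to 101 CPM). SP8 replicate 4 lay above the other SP8 libraries in Gimap4 (339 CPM against 315 to 316 CPM). SP8 replicate 4 lay below the other SP8 libraries in Igtp (112 CPM against 125 to 126 CPM). DP replicate 1 lay above the other DP libraries in Abca1 (85.7 CPM against 67.6 to 70.2 CPM). DP replicate 1 lay below the other DP libraries in Lat (1118 CPM against 1346 to 1364 CPM) and St3gal2 (19.3 CPM against 22.01 to 22.5 CPM). DP replicate 3 lay above the other DP libraries in Adgrg5 (0.888 CPM against 0.221 to 0.255 CPM). DP replicate 4 lay below the other DP libraries in Tcf4 (41.4 CPM against 53.5 to 55.5 CPM).

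The DP to SP8 change differed between neonates and adults by the interaction test in 10 genes named by rank. The neonatal log2 fold change exceeded the adult one in Golm1 (by 3.45), Ifit1bl1 (by 2.95), Papss2 (by 1.89), Il2rb (by 1.76) and Tns3 (by 1.502). As neonatal minus adult it was below 0 in H2-Q6 (−6.42), Kit (−3.999), Dtx1 (−3.48), Gpr55 (−3.46) and Ggt5 (−3.08).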

How the results depend on the processing

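Under other scalings, tests, filters and fits, 8460 to 10275 genes were called between adult DP and SP8, within 1.5 times the 9994 reported. Requiring a 2-fold change left 4894 genes, 2951 higher and 1943 lower. Leaving out 1 of the 8 libraries gave 9478 to 9849 calls (5209 to 5416 higher, 4269 to 4486 lower), and 2947 to 3700 for the age difference. Of the calls in the adult step 54.6% were higher, and 47.1% under total-count scaling. For the age difference this share was 50.7%, and 36.4% under total-count scaling.

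Replicate numbers are shared by DP and SP8, but the labels do not say that a number marks 1 mouse. Deviations of same-numbered libraries correlated at 0.084, 0.249, 0.171 and 0.200 for replicates 1 to 4, and 7 of the 8 libraries correlated best with their own number, a hint from the data that numbers may be shared. A further hint came from the 5 sex-linked genes. They summed to 41.5, 257, 480 and 417 CPM in DP replicates 1 to 4. In SP8 replicates 1 to 4 the sums were 35.5, 238, 371 and 293 CPM, in the same order of replicates. The criterion for pairs, a correlation over 0.1 for every number, was missed by replicate 1, and the reported calls therefore do not use the number. With the replicate number as a block, in a fit of the 8 libraries alone, 9700 genes were called (8710 in the same libraries without the block). For the age difference, a fit of the 16 DP and SP8 libraries gave 5042 calls with the block and 3464 without it, the latter fit chosen after seeing the data.

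Of the comparisons of named genes under an alternative, 3910 kept direction and call, 22 lost the call and 35 gained one, and 0 reversed. Zap70, Mcl1, Egr1, Tapbpl, Ifnar1 and Ly6e gained calls under other scalings; the cause was not tested. At this depth 1 count equals at most 0.0657 CPM; 184 called genes had 0 counts in DP and 59 had 0 counts in SP8, and their fitted sizes depend on the prior count.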

Other observations

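Some genes named for other tissues were detected in both groups, and from which cells their RNA came was not tested. Cldn4, an epithelial tight junction gene on the thymic epithelium list, had 32.1, 50.7, 44.3 and 55.3 CPM in the DP libraries and 1.56, 1.91, 1.94 and 2.22 CPM in the SP8 libraries (log2 fold change −4.58, SE 0.18, adjusted p = 1.30e-22), while the epithelial genes Krt5, Krt14, Foxn1 and Psmb11 of that list were too low to be tested. Ighm, the constant region of the immunoglobulin heavy chain, had 424 ± 8.12 CPM in DP and 296 ± 30.8 CPM in SP8, and the other 12 B cell genes summed to 28.04 to 41.1 CPM in DP and 17.1 to 22.7 CPM in SP8. Tfrc, the transferrin receptor, went from 55.1 ± 5.24 to 161 ± 12.6 CPM, and the other 7 erythroid genes summed to 0.383 to 1.600 CPM in DP and 0.105 to 1.24 CPM in SP8. Of 13 mitochondrially encoded genes 3 were called higher and 0 lower. Without DP replicate 3, SP8 replicate 2 or SP8 replicate 4 only 1 was called higher, and under total-count scaling 1 was higher and 1 lower. The gene mt-Nd1 went from 1156 ± 169 to 1773 ± 442 CPM with overlap, and mt-Co1 had 6713 ± 828 CPM in DP and 6767 ± 1366 CPM in SP8.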
